A study of Mus musculus with 4 samples.

Results

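The regions described here are those of C2C12 chromatin in which the splice isoform Mef2Da2 had a strong listed ChIP-seq peak and Mef2Da1 had none. They were chosen from the authors' combined table of regions by 3 conditions, namely at least 1 bp shared with a peak of the Mef2Da2 list, no base shared with a peak of the Mef2Da1 list, and a Mef2Da2 coverage height of 65 or more. This gave 848 of 19749 combined regions, out of 3968 in which Mef2Da2 alone had a listed peak. Both peak lists and the Mef2Da2 height therefore chose the regions, and values of either isoform in them are a description without a test.

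C2C12 is a mouse myoblast line that fuses into multinucleate myotubes when serum is withdrawn, and the cells were taken on day 5 in 2% horse serum with insulin and transferrin at 10 μg/mL each. Chromatin was cross-linked, cut with micrococcal nuclease and sonicated. There were 4 groups with 1 library each, so no value has a replicate error. Endogenous Mef2Da1 and Mef2Da2 were each precipitated with an antibody raised against a peptide of that isoform, and in Mef2Da1-BLOCK and Mef2Da2-BLOCK the same antibody had first been blocked with its peptide.

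Mef2D is a MADS-box transcription factor that binds AT-rich MEF2 sites in muscle gene enhancers and promoters and acts together with the E-box factors of the MyoD family. The a1 and a2 forms arise from mutually exclusive exons outside the DNA-binding domain. Mef2Da1 is broadly expressed, while Mef2Da2 is the form that appears in differentiating muscle. Regions with a listed peak of the muscle form alone are the part of the data in which a difference in location between the forms would be sought.

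Coverage height, the unit used below, is the largest pile-up of reads in a region as the authors deposited it, in whole numbers and not scaled to sequencing depth, which is unknown. In the strong Mef2Da2-only regions Mef2Da2 height ran from 65 to 474, with a median of 80 and quartiles of 71 and 101. Mef2Da1 height ran from 10 to 350, with a median of 36 and quartiles of 29 and 41. Mef2Da2-BLOCK ran from 1 to 33 with a median of 10, and Mef2Da1-BLOCK from 3 to 52 with a median of 14. The ranges of the isoforms overlapped, but Mef2Da1 was as high as or higher than Mef2Da2 in 13 of the 848 regions (1.53%), against 62.2% of all combined regions. All 848 heights of Mef2Da2 equalled that of the highest listed peak in the region, and 833 regions held 1 listed Mef2Da2 peak and 15 held 2.

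The classes most like these regions differ from them in 1 condition each. In the 2787 regions that also reached a Mef2Da2 height of 65 but had peaks of both isoforms, the median Mef2Da2 height was 95 and the median Mef2Da1 height 78. In the 3120 weaker Mef2Da2-only regions, below the height of 65, the medians were 46 and 34. Median Mef2Da1 height was similar in strong and weaker Mef2Da2-only regions, and median Mef2Da2 height was 80 and 46. Both classes were chosen to lack a listed Mef2Da1 peak, and the height of 65 set their Mef2Da2 heights apart. Nothing is therefore read from this difference between the isoforms. Regions with no listed peak of either isoform had a median Mef2Da1 height of 37.

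**Figure D1:**
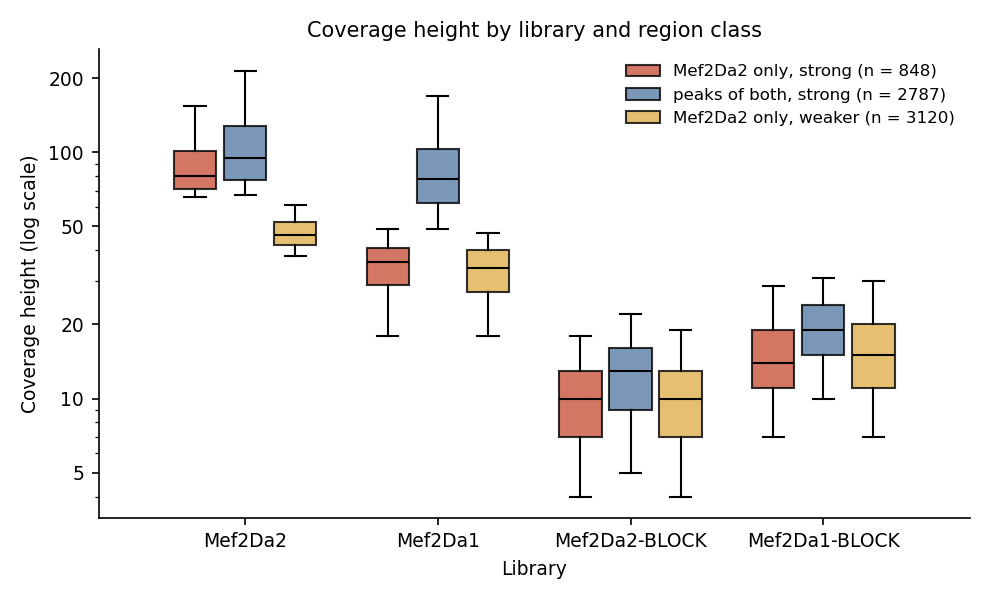
Coverage height (log scale) of each library in strong Mef2Da2-only regions, in regions with peaks of both isoforms and a Mef2Da2 height of 65 or more, and in weaker Mef2Da2-only regions. The classes are not matched in Mef2Da2 height. Boxes span the quartiles with the median as a line and whiskers from the 5th to the 95th percentile of regions; median Mef2Da1 height is 36, 78 and 34 in the 3 classes, and both blocked libraries lie lower than the isoforms, without scaling for depth.

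Height in the blocked libraries was not named in the rule, but the rule used both peak lists. Whether those lists depended on the blocked libraries is not given in the sources used here, so the blocked heights may not be independent of the choice of regions. The median of Mef2Da1-BLOCK was 14 in the strong Mef2Da2-only regions (quartiles 11 and 19), 15 in the weaker ones and 19 in strong regions with peaks of both. The median of Mef2Da2-BLOCK was 10, 10 and 13 in the same classes. Both blocked libraries were therefore lower by median in Mef2Da2-only regions than in strong regions with both peaks, with broadly overlapping quartiles. The difference was seen at matched Mef2Da2 height as well: at a height of 65 to 79, Mef2Da1-BLOCK had medians of 14 and 18 and Mef2Da2-BLOCK of 9 and 12, and at 150 or more the medians were 17 and 20, and 13 and 14. Median width also differed at matched height, at 505 and 686 bp in the first band and 583.5 and 858 bp in the second. Its part in the blocked heights was not tested. With 1 library per antibody the difference in blocked height could not be tested.

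Set against its own blocked control without scaling, with 1 added to each height, Mef2Da2 was at least 2-fold higher in all 848 regions, where 75% of all combined regions passed. At least 4-fold was reached in 819 of 848 regions (96.6%, exact 95% interval 95.1 to 97.7), against 38.2% of all regions. The median log2 ratio was 3.06, against 2.96 in strong regions with both peaks and 2.15 in weaker Mef2Da2-only regions. Since the rule required a high Mef2Da2 peak, these shares follow largely from the choice of regions.

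Mef2Da1 was at least 2-fold above its own blocked control in 528 of the 848 regions (62.3%, exact 95% interval 58.9 to 65.5), a share near the 64.7% of all combined regions. In strong regions with both peaks the share was 97.7%, and in weaker Mef2Da2-only regions 53.9%. The median log2 ratio of Mef2Da1 to Mef2Da1-BLOCK in the strong Mef2Da2-only regions was 1.14 unscaled, but −0.17 with both libraries scaled to their total height over the table and −0.0049 with scaling to the median ratio. The median over all combined regions was 1.19, −0.13 and 0.04 under the same 3 settings, since both scalings centre the whole table, and the strong Mef2Da2-only regions lay 0.047 to 0.055 below it in each. Whether Mef2Da1 was above its control in these regions cannot be told without the depth. In 13 regions (1.53%) Mef2Da1 was not above Mef2Da1-BLOCK even unscaled, against 0.724% of all regions. Their Mef2Da2 heights were 65 to 162, with Mef2Da1 at 10 to 30 and Mef2Da1-BLOCK at 12 to 30.

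Mef2Da1 signal without a listed Mef2Da1 peak was graded in these regions. The authors' −log10 p for Mef2Da1 was under 3 in 179 regions, 3 to under 6 in 591, 6 to under 7.5 in 48 and 7.5 or more in 30. A value of 3 or more was thus reached in 669 of 848 regions (78.9%), against 92.1% of all combined regions, and 6 or more in 78 (9.20%), against 40.5%. No Mef2Da1 peak was listed in any of them, by the rule. The lowest height in the Mef2Da1 list was 42, and 207 of the 848 regions had a Mef2Da1 height of 42 or more. Over all combined regions the median Mef2Da1 height was 43, so most of the table reached 42.

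The 30 regions with a Mef2Da1 −log10 p of 7.5 or more (3.54%, against 24.8% of all combined regions) were described apart from the other 818, at a level chosen after the values were seen. Mef2Da1 height was 62 to 350 in the 30 regions, with a median of 100, and 10 to 52 in the 818, with a median of 35. This separation in Mef2Da1 height follows from the split, and −log10 p itself ran up to 7.36 in the 818 and from 7.87 in the 30. Median Mef2Da2 height was 100 in the 30 regions and 80 in the 818. The blocked Mef2Da1 library was also high in the 30 regions, with a Mef2Da1-BLOCK height of 34 to 52 (median 39) against 3 to 34 (median 14). The authors' −log10 p column for Mef2Da1-BLOCK, treated as a score because a few of its values are negative, was 4.57 to 7.46 in the 30 regions. It reached 4.5 in all 30 of them and in 1 of the 818, against 2.2% of all combined regions. Mef2Da2-BLOCK had medians of 16 and 9. The 30 regions were also wider, with a median of 883.5 bp against 504.5 bp.

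The same pairing of values was found across the table. A Mef2Da1 −log10 p of 7.5 or more occurred in 4900 combined regions, of which 4788 had a listed Mef2Da1 peak and 112 had none. Of the 112 without a listed peak, 105 had a Mef2Da1-BLOCK score of 4.5 or more, as did 105 of the 4788 with one. At a score of 5 or more the counts were 88 without and 7 with a listed peak. The 105 unlisted regions comprised the 30 described here, 48 weaker Mef2Da2-only regions and 27 regions with no listed peak. How the authors used the blocked libraries in calling peaks is not given in the sources used here, and the part of the blocked signal in the missing Mef2Da1 peaks was not tested.

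**Figure D2:**
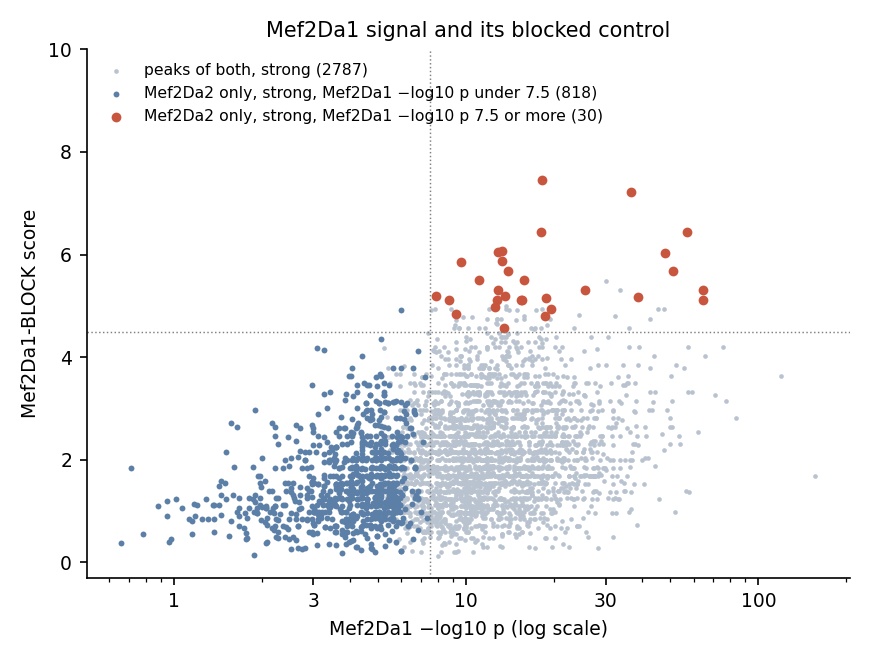
Mef2Da1 −log10 p (log scale) and Mef2Da1-BLOCK score in each strong Mef2Da2-only region and in strong regions with peaks of both isoforms; dotted lines mark 7.5 and 4.5. All 30 strong Mef2Da2-only regions with a Mef2Da1 −log10 p of 7.5 or more have a blocked score of at least 4.57.

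These 30 regions held much of the top of the ranking by Mef2Da2 height, with 6 of the 10 highest regions and 11 of the 52 at 150 or more. The highest of all, chr2:125429442-125430290 (coordinates of build mm9, as given in the table, throughout), was not among them. It had a Mef2Da2 height of 474, with Mef2Da1 at 39, Mef2Da2-BLOCK at 12 and Mef2Da1-BLOCK at 25. The next 5 were all high in Mef2Da1. At chr15:79073230-79074435 Mef2Da2 stood at 386 and Mef2Da1 at 248, over 26 and 44 in the respective blocked libraries. At chr1:94683390-94684276 the isoforms stood at 342 and 350 over 33 and 38, and at chr1:73961495-73962646 at 324 and 312 over 21 and 45. In both of the latter the isoforms were nearly equal in height.

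At chr19:5723951-5725781 Mef2Da2 had a height of 320 and Mef2Da1 of 282, over 25 and 41. At chr8:84376953-84377529 the heights were 286 and 215 over 16 and 37. The remaining 4 of the 10 were mixed. chr2:61291498-61292863 had 222 for Mef2Da2 and 89 for Mef2Da1 over 13 and 35, and its Mef2Da1-BLOCK score was 4.57. The other 3 were not among the 30 regions with high Mef2Da1. chr17:72392284-72392665 had 226 and 39 over 12 and 24. chr5:135418584-135419027 had 197 and 33 over 5 and 11. chr10:38681704-38682111 had 196 and 47 over 11 and 8, with a Mef2Da1 −log10 p of 6.57 and no listed Mef2Da1 peak.

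Without the 30, the regions at a Mef2Da2 height of 150 or more numbered 41. Their median Mef2Da2 height was 162. Mef2Da1 in them ran from 24 to 48 with a median of 37, over a Mef2Da1-BLOCK of 8 to 30 with a median of 15. Mef2Da2-BLOCK ran from 4 to 22 with a median of 12. The smallest ratio of Mef2Da2 to Mef2Da1 height among these 41 regions was 3.21 without scaling.

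**Figure D3:**
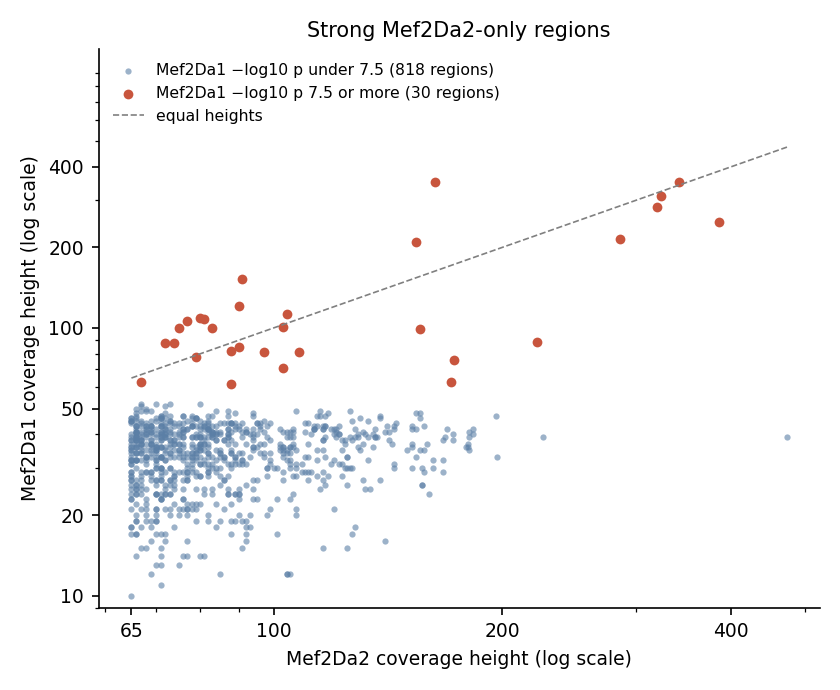
Coverage height of Mef2Da2 and Mef2Da1 (both log scales) in the 848 strong Mef2Da2-only regions, with a dashed line at equal heights. The 30 regions with a Mef2Da1 −log10 p of 7.5 or more lie at Mef2Da1 heights of 62 to 350, and the other 818 at 10 to 52. Among the latter, the 41 at a Mef2Da2 height of 150 or more lie at 24 to 48.

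Mef2Da1 and Mef2Da2 were next compared within each region after scaling to the total height over the table. Mef2Da2 was at least 2-fold higher in 613 of the 848 regions (72.3%, exact 95% interval 69.1 to 75.3), against 7.03% of all combined regions. At least 4-fold was reached in 113 (13.3%, 11.1 to 15.8), against 0.765%. The median log2 ratio was 1.32, against 0.32 in strong regions with both peaks and 0.49 in weaker Mef2Da2-only regions. The rule used this contrast, so nothing is read from the excess over all regions. The other 235 regions were within 2-fold or, in 1 case, over 2-fold lower. Over all regions the median log2 ratio was −0.17 with this scaling and 0.40 with scaling to the totals of the blocked libraries. With the latter, 97.2% of the strong Mef2Da2-only regions were at least 2-fold higher, against 20.1% of all combined regions.

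The largest ratio toward Mef2Da2 was that of chr2:125429442-125430290, with a log2 ratio of 3.60, where Mef2Da1 at 39 was above the median of 36 and Mef2Da2 was the highest of all. The next 4 had Mef2Da1 heights of 12 to 16. The first of them was chr8:33286661-33287040, where Mef2Da2 had 140 and Mef2Da1 16, over 9 and 14 in their blocked libraries. At chr6:42333990-42334349 the heights were 105 and 12 over 6 and 6. The last 2, chr11:54524023-54524385 and chr14:48843750-48844159, both had 104 and 12, over 5 and 10 in the first and over 15 and 12 in the second. In the second of these Mef2Da1 stood level with its blocked control, and in the others it was above it by a log2 ratio of at most 0.89 without scaling.

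The 5 smallest ratios all belonged to the 30 regions with high Mef2Da1. At chr11:54335886-54336719 Mef2Da1 had 350 and Mef2Da2 163, a log2 ratio of −1.07, over 39 and 22 in the respective blocked libraries. At chr6:125098016-125100036 Mef2Da1 had 152 and Mef2Da2 91, and a listed Mef2Da1 peak lay 335 bp away. chr8:87187743-87188445 had 210 and 154, with a listed Mef2Da1 peak 310 bp away. The other 2, chr15:82979178-82980777 and chr1:94599921-94601095, had Mef2Da1 at 106 and 109 and Mef2Da2 at 77 and 80. Although a Mef2Da2 peak alone was listed in each of these 5, the higher signal was that of Mef2Da1, with or without scaling to the total.

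The highest blocked signal was found in regions of both kinds. Mef2Da1-BLOCK reached 52 at chr15:82979178-82980777, 49 at chr8:87187743-87188445 and 45 at chr1:73961495-73962646, all with high Mef2Da1. Mef2Da2-BLOCK reached 33 at chr1:94683390-94684276. It was next highest at chr10:79609944-79611249, with 29 under a Mef2Da2 height of 67, and at chr8:81889397-81890074, with 27 under 68. In those last 2 regions Mef2Da1 had no high signal, at 40 and 44, and Mef2Da2 exceeded its control by log2 ratios of 1.18 and 1.30, the 2 lowest of the 848. A Mef2Da2-BLOCK score of 3 or more was found in 27 of the 848 regions (3.18%), against 3.68% of all combined regions.

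Higher Mef2Da2 peaks stood less often without a Mef2Da1 peak. Of the regions with a Mef2Da2 peak, 3120 of 5580 (55.9%) lacked a Mef2Da1 peak below a Mef2Da2 height of 65, and 848 of 3635 (23.3%, exact 95% interval 22.0 to 24.7) at 65 or more. Within the latter the share was 33.7% (31.0 to 36.4) at 65 to 79, 24.3% (21.6 to 27.2) at 80 to 99, 16.6% (14.3 to 19.0) at 100 to 149 and 10.1% (7.65 to 13.1) at 150 or more. In regions with both peaks, median Mef2Da1 height over the same 4 bands was 66, 73, 88 and 118. In the Mef2Da2-only regions it was 34, 36, 36 and 39. The Spearman correlation of the isoforms' heights was 0.47 over the 2787 strong regions with both peaks and 0.13 over the 848 Mef2Da2-only regions. Without the 30 regions of high Mef2Da1 it was 0.087 over 818. These medians and correlations are across regions that share the same libraries, and the rule left out regions with a listed Mef2Da1 peak. They are given as a description.

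**Figure D4:**
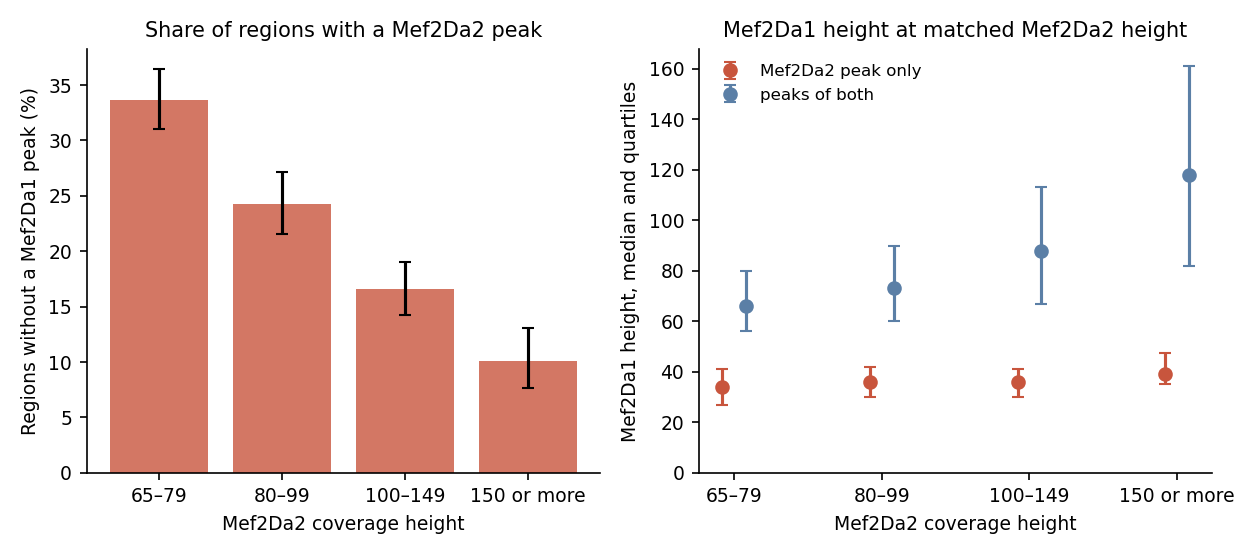
Left, share of regions with a Mef2Da2 peak that lack a Mef2Da1 peak (bars, with exact 95% binomial intervals) by Mef2Da2 coverage height; right, median Mef2Da1 height with quartiles in Mef2Da2-only regions and where both had a peak. The share is 33.7% in the lowest band and 10.1% in the highest, and median Mef2Da1 height is 34 to 39 in Mef2Da2-only regions and 66 to 118 where both isoforms have a peak.

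The same rule with the isoforms exchanged gave fewer regions. Of 2997 regions with a Mef2Da1 peak and a Mef2Da1 height of 65 or more, 289 (9.64%, exact 95% interval 8.61 to 10.8) lacked a Mef2Da2 peak. Mef2Da1 had a median of 70 and Mef2Da2 of 30 there, over 25 and 16 in the blocked libraries, and 2 of these regions reached a Mef2Da1 height of 150. Of the 289, 3 had a Mef2Da2 −log10 p of 7.5 or more. Since a height of 65 need not mean the same in libraries of unknown depth, and the Mef2Da2 list admitted heights down to 34 against 42 for Mef2Da1, the 2 counts are given side by side only.

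The height of 65 cut through a continuous distribution. Just inside it, 86 regions had a Mef2Da2 height of 65 or 66, with a median Mef2Da1 height of 34 (range 10 to 50). Just outside, 90 Mef2Da2-only regions had a height of 63 or 64, with a median Mef2Da1 height of 36 (range 14 to 97). Median width was 494.5 and 535.5 bp on the 2 sides, and Mef2Da2-BLOCK had a median of 9.5 on both.

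Strong Mef2Da2-only regions were narrower by median than the classes with a Mef2Da1 peak, but not than the others without one. Their median width in the combined table was 510 bp (quartiles 415 and 680.25), against 557 bp over all combined regions. The median was 748 bp in strong regions with both peaks and 639 bp in regions with both peaks and lower Mef2Da2 height. It was 625 bp in regions with a Mef2Da1 peak only. Weaker Mef2Da2-only regions had a median of 483 bp and regions with no listed peak 493 bp. Strong Mef2Da2-only regions and strong regions with both peaks were also compared at matched Mef2Da2 height. The medians were 505 and 686 bp at 65 to 79, and 583.5 and 858 bp at 150 or more. The listed Mef2Da2 peak itself had a median width of 358.5 bp in strong Mef2Da2-only regions. The widest region was chr8:86096963-86100433, with 3471 bp, 2 listed Mef2Da2 peaks and heights of 156 for Mef2Da2 and 99 for Mef2Da1. The next were chr10:80883815-80885906, with 2092 bp, and chr6:125098016-125100036, with 2021 bp. Width had a Spearman correlation of 0.43 with Mef2Da1 height and 0.067 with Mef2Da2 height across the 848 regions. How the authors set the edges of the combined regions is not given in the sources used here, and their part in this relation was not tested.

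The regions were found on all 19 autosomes, from 23 on chromosome 18 to 89 on chromosome 1. The combined regions of every class lay on autosomes only, so the sex chromosomes could not be read. As a share of the regions with a Mef2Da2 peak of height 65 or more, they ranged from 18.5% on chromosome 18 (exact 95% interval 12.1 to 26.5) to 28.05% on chromosome 10 (22.5 to 34.1). Chromosome 1 had 27.3% and chromosome 15 had 19.4% (14.7 to 24.9). The interval of every chromosome contained the overall 23.3%.

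**Figure D5:**
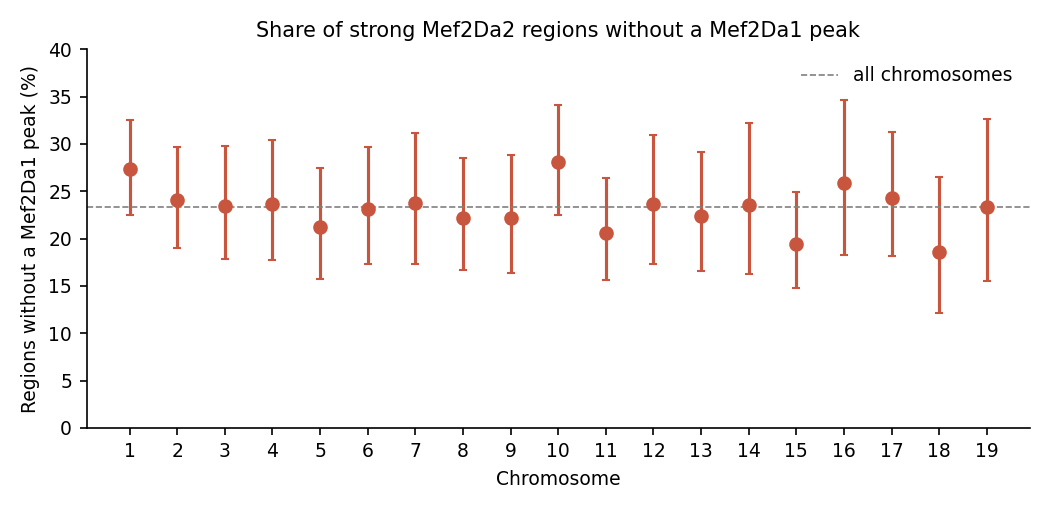
Share of the regions with a Mef2Da2 peak of height 65 or more that lack a Mef2Da1 peak, by chromosome, with exact 95% binomial intervals; the dashed line is the share over all chromosomes, 23.3%. All 19 intervals include it.

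Position relative to other Mef2D regions was not used by the rule beyond the exclusion of overlaps. Within 10 kb of a region with peaks of both isoforms lay 148 of the 848 regions (17.5%, exact 95% interval 15.0 to 20.2). The share was 18.2% for weaker Mef2Da2-only regions (16.9 to 19.6), 19.0% for regions with a Mef2Da1 peak only (17.6 to 20.4) and 19.8% for regions with no listed peak (18.9 to 20.7). Strong regions with both peaks lay within 10 kb of another region with both peaks, at any Mef2Da2 height, in 28.2% of cases (26.5 to 29.9). The intervals cover counting error only and treat regions as independent. The median distance to the nearest region with both peaks was 59147.5 bp for strong Mef2Da2-only regions, and 36685 bp from strong regions with both peaks to the nearest other region with both peaks at any height. A listed Mef2Da1 peak lay within 1 kb of 32 of the 848 regions (3.77%). The 5th percentile of the distance to a listed Mef2Da1 peak was 1427 bp for strong Mef2Da2-only regions. It was 1108 bp for weaker Mef2Da2-only regions and 635 bp for regions with no listed peak.

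Within 50 kb of a region with peaks of both isoforms lay 46.1% of strong Mef2Da2-only regions. The share was 45.7% for weaker Mef2Da2-only regions, 43.4% for regions with a Mef2Da1 peak only and 46.4% for regions with no listed peak. When strong Mef2Da2-only regions with midpoints up to 50 kb apart were joined, 753 of the 848 remained single. Another 74 formed 37 pairs and 21 formed 7 groups of 3, which was the largest number. Other classes were not grouped in this way, so nothing is read from these counts. The first 3 groups of 3 in the sort order of chromosome names, with the ties not otherwise resolved, were on chromosomes 1, 10 and 12. The one on chromosome 1, from 164031332 to 164063997, held no other combined region, with Mef2Da2 at 123, 71 and 78 and Mef2Da1 at 31, 11 and 44. The one on chromosome 10, from 39085813 to 39128039, had Mef2Da2 at 72, 65 and 80 and Mef2Da1 at 48, 44 and 39, and its span also held 1 weaker Mef2Da2-only region and 1 region with no listed peak. On chromosome 12, from 53925828 to 53975993, Mef2Da2 stood at 74, 103 and 67 and Mef2Da1 at 22, 29 and 29, and 2 regions with peaks of both isoforms and 1 with a Mef2Da1 peak only lay in the same span. None of these 9 regions had Mef2Da1 signal as high as Mef2Da2, which was so in only 13 of the 848 regions (1.53%).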

How the data were processed

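ChIP-seq of 4 libraries from C2C12 cells was analysed from 2 peak lists and 1 combined table. The submitters' processing notes name BWA 0.5.9 and build mm9, and neither the caller nor the read depth is stated there. Signal in the deposited files is a coverage height in whole numbers, the authors' −log10 p accompanies it, and for the blocked libraries the deposited −log10 p column was treated as a score. Groups came from sample titles, and table columns were matched through the names of the peak lists.

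Overlap meant 1 shared bp. Ratios used a pseudocount of 1; isoforms were scaled to total height over the table and isoform-to-control ratios were left unscaled. Exact (Clopper-Pearson) 95% intervals cover counting error only. No test was run, with 1 library per group. Overlap code and the unscaled ratio were tested on simulated data, and the scaled ratios were not. Height and score levels, height bands and comparison classes, like the regions themselves, were chosen with earlier results of these data known. Regions named were the 10 highest in Mef2Da2, the 5 largest and smallest ratios, the 5 highest in Mef2Da1, the 3 highest in each blocked library, the 3 widest and 3 of the 7 tied densest groups, by chromosome name. The gene tables at hand are of another build, so genes, motifs and sequences were not analysed here. The code ran under Python 3.11.15 with SciPy 1.17.1, pandas 2.3.3, NumPy 2.4.6 and Matplotlib 3.10.9.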

Additional observations from a re-analysis of the deposited data

How the results depend on the processing

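Over 7 results, 36 alternative values were computed, of which 16 stayed within the bound set (1.5 times for the count of regions, otherwise the 95% interval of the value), 18 moved and 2 changed sign. The count of regions was 848, 1921 with a height of 50 or more and 214 with 100 or more, by construction of the threshold. The share at least 2-fold higher in Mef2Da2 than in Mef2Da1 was 72.3%, against 7.03% of all combined regions. It was 83.6% scaled to the median ratio, against 9.71% of all regions, and 97.2% scaled to blocked totals, against 20.1%. The share was 66.04% with a pseudocount of 5, for which the share of all regions was not computed. With the same scaling as for 72.3%, it was 77.01% without regions of Mef2Da1 −log10 p 6 or more and 94.4% at a height of 100 or more. The last 2 settings choose regions by the signal of an isoform in the ratio, so nothing is read from their higher shares. The median log2 ratio was 1.32, and 1.48, 1.89, 1.23 and 1.77 under the median ratio, blocked totals, the pseudocount of 5 and the height of 100. Mef2Da2 over its blocked control was 3.06, and 1.19 scaled to total height, 1.50 scaled to the median ratio and 2.65 with a pseudocount of 5. Mef2Da1 over its blocked control was 1.14, and −0.17 scaled to total height, −0.0049 scaled to the median ratio and 0.96 with a pseudocount of 5; the first 2 scalings centre the libraries over regions chosen for signal. The share near a region with both peaks was 11.1% within 5 kb and 46.1% within 50 kb, and the median width was 358.5 bp for the Mef2Da2 peak itself. Leaving out the 30 regions of high Mef2Da1, an alternative chosen after seeing the data, moved none of the 7 results past its bound. Taking 30 of 848 regions out could hardly move a count, share or median that far, so nothing is read from this. No paired analysis was possible because each group had 1 library. The MEF2 motif and its alternatives were not run, for want of a genome of build mm9. Unknown depth limits every comparison of heights between libraries.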

Other observations

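The list of Mef2Da2 peaks held 946 peaks of height 65 or more with no overlapping Mef2Da1 peak, and 81 of them lay outside every combined region, so that Mef2Da1 and the blocked libraries could not be read there. Their median height was 97, the highest reached 402, and 38 were at 100 or more. After the peaks at 402 and 330, the highest of the 81 were chr4:94718663-94719141 with a height of 295, chr15:66715160-66715950 with 273 and chr15:97642540-97642989 with 253.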
